A study of Mus musculus with 8 samples.

Results

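Semaphorins, plexins and neuropilins were examined in the vagal region of E9.5 mouse embryos, taken as the tissue beside somites 1 to 7. Members were chosen by gene symbol alone, and the rule took 31 protein-coding genes of the 55421 genes listed: 20 semaphorins, 9 plexins and 2 neuropilins. Of these, 30 had a mean level of at least 1 TPM over the 8 libraries and were tested, among 15717 genes in all. TPM, the unit of all levels given, is scaled by gene length and library total, so levels of different genes can be set side by side. Plxnb3 was the member not tested, with 0.0267 to 0.158 TPM in the 8 libraries, or 1 to 6 reads. The libraries came from 4 embryo samples homozygous for the trex allele of Rdh10 (trex) and 4 wt samples, with no other allele or agent named in the labels. Rdh10 encodes the retinol dehydrogenase that supplies retinaldehyde for retinoic acid synthesis, so the series asks how the mutation alters expression in this region. Whether a sample was an embryo or a pool, and whether litters were separate, is not stated in the labels, so p-values reflect only the spread among these 8 samples, part of which may be technical.

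Semaphorins are secreted or membrane-bound guidance proteins that mostly repel growing axons, migrating neural crest cells and endothelial sprouts. Plexins are their signalling receptors, and act on small GTPases inside the cell. Most secreted class 3 semaphorins need a neuropilin beside a plexin of the A type, while Sema3e can bind Plxnd1 directly. Class 4 semaphorins mainly use plexins of the B type, class 5 and 6 semaphorins plexins of the A type, and Sema7a uses Plxnc1 or integrins. Neuropilins also bind vascular endothelial growth factors, which links the family to blood vessels. In the vagal region, neural crest cells leave the neural tube towards the heart, the pharyngeal arches and the gut through tissue that carries these cues.

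Recovered reads ranged from 20926427 to 23645542 per library. Rdh10 itself was higher in every trex library, ranging from 62.7 to 106 TPM, against 36.3 to 41.0 TPM among wt libraries. The labels do not say how the allele affects its transcript, so these values are no check of the labels. Trex replicate 1 stood farthest from wt on the first principal component of all tested genes (-56.8, with wt between 21.3 and 28.0) and trex replicate 2 nearest (-2.05). Only wt replicates 2 and 3 held Y-linked transcripts (162 and 158 TPM summed, against no more than 0.0662 TPM elsewhere), so sex and genotype were partly mixed. Markers of neural tube, neural crest, endothelium and heart were all detected, and those of heart and liver differed widely between libraries of the same group: 10 cardiomyocyte markers summed to 165 to 1573 TPM in trex and 136 to 1538 TPM in wt, and 8 liver bud markers to 5.22 to 456 TPM and 2.25 to 174 TPM.

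The sequences before the RefSeq start of 4 members are shown: both neuropilins, the called receptor Plxnc1, and Sema5a, which has a divergent neighbouring gene. The called members Plxna4 and Sema3b had no entry. RefSeq (GRCm38.p6) gave 37 promoters, each from 250 bases before to 50 bases after a start, for 26 of the 31 members. Printed 5′ to 3′ are those of the 250 bases before each RefSeq start that lie in no annotated exon, and capitals mark AGGTCA, the half-site bound by retinoic acid receptors and other nuclear receptors, or TGACCT, the same letters on the other strand.
Nrp2, chr1:62703067-62703284, plus strand: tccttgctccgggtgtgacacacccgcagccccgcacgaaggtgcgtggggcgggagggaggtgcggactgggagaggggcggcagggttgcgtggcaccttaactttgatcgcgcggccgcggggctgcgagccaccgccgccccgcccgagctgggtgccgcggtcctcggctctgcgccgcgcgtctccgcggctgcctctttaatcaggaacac
Nrp1, chr8:128358823-128359072, plus strand: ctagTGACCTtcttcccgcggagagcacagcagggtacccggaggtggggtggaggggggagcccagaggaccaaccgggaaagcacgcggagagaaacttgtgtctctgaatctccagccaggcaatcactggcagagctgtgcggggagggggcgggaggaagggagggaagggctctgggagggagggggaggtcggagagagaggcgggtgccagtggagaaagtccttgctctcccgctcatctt
Plxnc1, chr10:94944846-94945095, minus strand: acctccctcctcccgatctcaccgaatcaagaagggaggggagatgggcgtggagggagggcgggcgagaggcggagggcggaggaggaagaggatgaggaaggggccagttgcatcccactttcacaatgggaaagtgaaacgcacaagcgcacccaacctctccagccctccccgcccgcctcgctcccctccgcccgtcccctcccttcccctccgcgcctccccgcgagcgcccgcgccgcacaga
Sema5a, chr15:32244663-32244809, plus strand: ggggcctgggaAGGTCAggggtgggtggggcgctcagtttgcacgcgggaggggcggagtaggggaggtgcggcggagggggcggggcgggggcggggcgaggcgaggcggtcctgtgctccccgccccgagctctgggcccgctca
The Nrp1 window lies inside the gene as GENCODE draws it, in an intron of a transcript that starts at 128358604, upstream of the RefSeq start. The Nrp1 match begins 246 bases before the start and that of Sema5a 139 bases before it. No AGGTCA lies in the windows of Nrp2 and Plxnc1. Over all members the motif, searched on both strands, was in 7 of 37 promoters (those of Nrp1, Plxnb2, Plxnd1, Sema4b, Sema4d, Sema5a and Sema6b), against 14.0% of all 32851 promoters. The direct repeat of this half-site spaced by 5 bases was in 0 member promoters and in 3 of all promoters, and the hypoxia response core ACGTG was in 7 member promoters against 16.6% of all. A match describes letters only and is not a site shown to be bound.

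Of the 30 tested members, 6 rose (Nrp2, Plxna4, Plxnc1, Sema3b, Sema3d and Sema5a), 1 fell (Sema5b) and 23 were not called in limma at an adjusted p below 0.05. That is 23.3% called, where 8.71% of all tested genes were called (4.94% higher and 3.77% lower). In 14 members every trex library lay above every wt library and in 1 member every trex library lay below, together 50% of the tested members against 21.8% of all genes (12.9% higher and 8.95% lower). The median log2 difference was 0.27 over the members and 0.04 over all tested genes. In bulk tissue, a change in the number of cells of a type and a change in RNA per cell cannot be told apart. Leaving out a single library left between 2 and 11 members called higher and between 0 and 2 called lower. The higher count was 2 without wt replicate 2 and 3 without wt replicate 1 or 3. It was 4 without trex replicate 4 and 11 without trex replicate 2. Over all tested genes 84 were called higher without wt replicate 2 and 1702 without trex replicate 2, the lowest and highest such counts. Sema5b was not called without trex replicate 3 or 4 or wt replicate 1, 2 or 3. With sex as a covariate no member was called in limma, and over all 15717 tested genes only 9 were higher and 30 lower. In that fit 13 members had an unadjusted p below 0.05, and the share of all genes below it is not given here. The differences of the 7 members called without the covariate lay between -0.38 and 0.87.

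**Figure D1:**
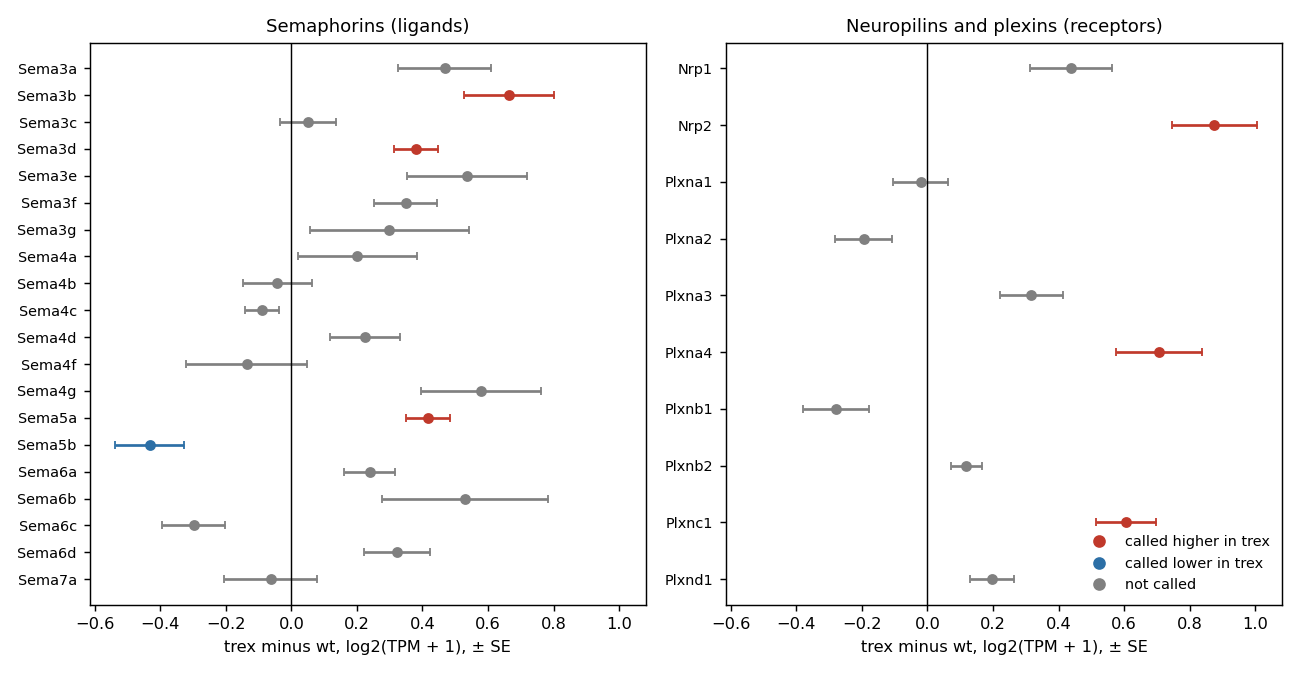
Difference between trex and wt (log2(TPM + 1) scale, mean ± SE from limma, n = 4 each) for the 20 semaphorins on the left and the 10 tested receptors on the right; red points were called higher, blue lower and grey not called. Nrp2 stands farthest right at 0.88 and Sema5b farthest left at -0.43.

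Neuropilins, the ligand-binding subunits of class 3 semaphorin receptors, had a median log2 difference of 0.66, above that of semaphorin classes 3 and 4 (0.38 and 0.08) and of plexins (0.16). Nrp2 (ENSMUSG00000025969, chromosome 1, 62703285 to 62818695, plus strand, mm10), the receptor best known for Sema3f, stood at 168, 108, 109 and 126 TPM in trex replicates 1 to 4 and at 64.0, 66.3, 69.4 and 73.3 TPM in wt replicates 1 to 4. The lowest mutant library was thus well above the highest wt library, and trex replicate 1 stood above the other mutants. The means were 128 ± 27.9 and 68.2 ± 4.02 TPM (SD, n = 4 each), so Nrp2 rose 1.87-fold (log2 difference 0.88 ± 0.13 SE, adjusted p = 0.00996 in limma). By exact permutation of the 8 libraries, two-sided, p was 0.0286, which is the lowest value possible for 4 against 4 and holds for every other member whose groups do not overlap. The call held without each library in turn (adjusted p 0.00258 to 0.0457). Nrp2 lies 46.6 Mb from Rdh10 on the same chromosome.

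Nrp1 (ENSMUSG00000025810, chromosome 8, 128358604 to 128503363, plus strand), the receptor subunit best known for Sema3a, stood at 29.6, 28.6, 35.4 and 42.0 TPM in trex and 22.0, 23.5, 25.3 and 27.3 TPM in wt. The groups did not overlap, but the gap between trex replicate 2 and wt replicate 4 was small. The log2 difference of 0.44 ± 0.12 was not called (adjusted p = 0.0637 in limma); without trex replicate 1 or 2 it was called (0.0487 and 0.0296). Nrp2 made up 75.02% to 85.03% of the summed neuropilin level in trex and 72.8% to 74.4% in wt, with trex replicate 1 highest. Of 14 endothelial markers, 3 rose (Cdh5, Tek and Eng), 0 fell and 11 were not called. That is 21.4% called, against 8.71% of all tested genes. Leaving out a single library gave 0 to 5 endothelial markers higher. Their summed level was 590 to 709 TPM in trex and 527 to 574 TPM in wt, and none was at 0 in all libraries. Their part in the neuropilin differences was not tested.

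**Figure D2:**
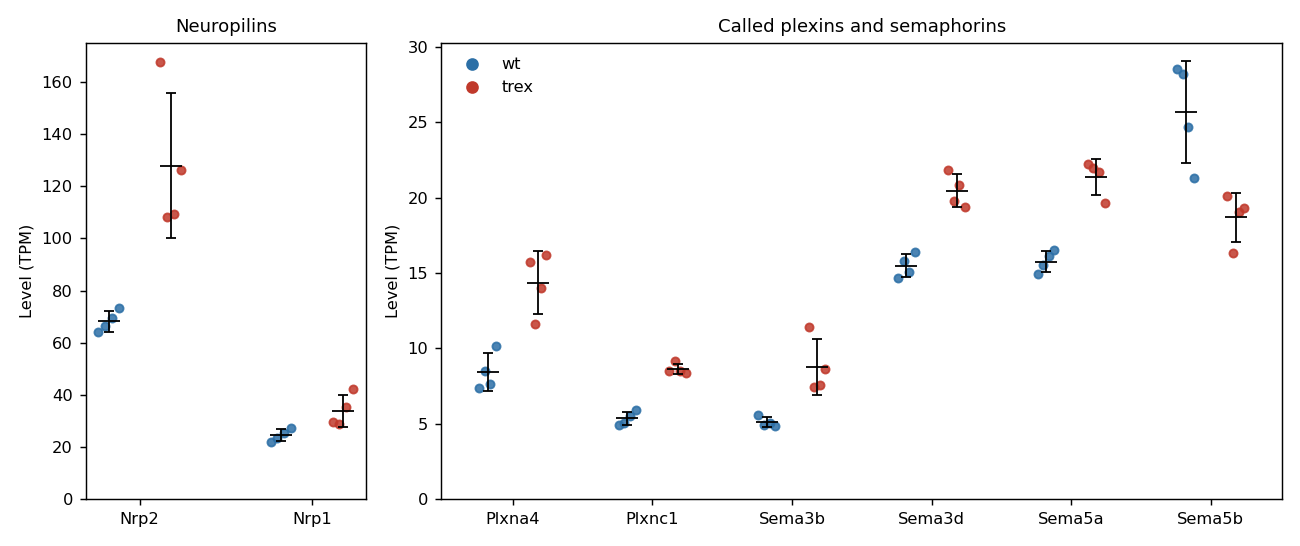
Level in TPM of both neuropilins (left) and of the other called members (right), with each library as a point, and the mean and SD of the 4 libraries of a group as bars. The trex libraries of Nrp2 lie between 108 and 168 TPM, above all wt libraries, while those of Sema5b lie between 16.3 and 20.1 TPM, below all wt libraries.

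Of 8 tested plexins, 2 rose (Plxna4 and Plxnc1) and 6 were not called. Over all tested genes 8.71% were called, 4.94% of them higher and 3.77% lower as shares of all tested. Plxna4 (ENSMUSG00000029765, chromosome 6, 32144268 to 32588192, minus strand), which transmits Sema3a and Sema6 signals in sensory and sympathetic neurons, stood at 15.7, 11.6, 14.0 and 16.2 TPM in trex and 7.36, 8.49, 7.62 and 10.1 TPM in wt. All mutant libraries lay above wt, and Plxna4 rose 1.71-fold (log2 difference 0.71 ± 0.13, adjusted p = 0.0191 in limma). The call ended without trex replicate 4 or wt replicate 1, 2 or 3, with values up to 0.0695. Its share of the summed plexin A level was 5.99% to 9.83% in trex and 4.08% to 6.04% in wt. The 3 antisense genes annotated across Plxna4 were listed at 0 in all libraries.

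Plxnc1 (ENSMUSG00000074785, chromosome 10, 94790866 to 94944835, minus strand), the receptor of Sema7a, stood at 8.51, 9.16, 8.49 and 8.38 TPM in trex and 4.89, 5.07, 5.48 and 5.92 TPM in wt. The mutant libraries were tightly grouped and clear of wt. Plxnc1 rose 1.62-fold (log2 difference 0.61 ± 0.09, adjusted p = 0.0102 in limma), and it was called without each library in turn (up to 0.0498). Its ligand gene Sema7a averaged 5.98 ± 0.563 TPM in mutants against 6.36 ± 1.31 TPM, a difference that was not called (adjusted p = 0.788).

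The remaining plexins of the A type were not called. Plxna3 (chromosome X), a receptor partner of Nrp2 for Sema3f, stood at 34.6, 29.8, 29.1 and 27.3 TPM in trex and 26.9, 24.2, 24.4 and 20.7 TPM in wt. These values did not overlap, trex replicate 4 lay next to wt replicate 1, and the adjusted p was 0.0756 in limma. Plxna1 stood at 92.9, 110, 87.0 and 82.9 TPM in trex and 96.4, 92.9, 96.9 and 90.02 TPM in wt. Plxna2 stood at 50.7, 42.0, 39.9 and 38.2 TPM in trex and 49.6, 51.7, 46.7 and 47.0 TPM in wt. For both the groups overlapped, with log2 differences of -0.02 ± 0.08 and -0.19 ± 0.09; Plxna2 was called lower without trex replicate 1 (adjusted p = 0.0208).

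Plxnd1, Plxnb2 and Plxnb1 were among the more abundant members and were not called. Plxnd1 (chromosome 6), an endothelial receptor of Sema3e, stood at 148, 120, 119 and 126 TPM in trex and 110, 112, 111 and 112 TPM in wt. Its groups did not overlap, and trex replicate 1 was highest; the log2 difference was 0.20 ± 0.07 (adjusted p = 0.105 in limma). Plxnb2, a receptor for class 4 semaphorins in the neural tube, stood at 115, 125, 125 and 132 TPM in trex and 115, 115, 114 and 113 TPM in wt. Plxnb1, the receptor of Sema4d, stood at 46.6, 63.3, 60.9 and 57.4 TPM in trex and 75.6, 69.1, 69.7 and 62.1 TPM in wt. Groups overlapped for both, with log2 differences of 0.12 ± 0.05 and -0.28 ± 0.10. Both had an unadjusted p below 0.05, and neither was called in limma (adjusted p = 0.145 and 0.112) or by voom; Plxnb2 was called higher without trex replicate 1 (0.0280).

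Secreted class 3 semaphorins, the ligands of neuropilins, all had a positive difference, as did 8904 of all 15717 tested genes. The smallest, that of Sema3c (0.05 ± 0.08), changed sign in some alternatives. Of the 7 class 3 genes 2 rose, where 4.94% of all tested genes rose. Sema3d (ENSMUSG00000040254, chromosome 5, 12383385 to 12588948, plus strand), a cue for cardiac neural crest and veins, stood at 21.8, 19.8, 20.8 and 19.4 TPM in trex and 14.7, 15.8, 15.0 and 16.4 TPM in wt. The rise of 1.32-fold was small but exceeded the spread of either group (log2 difference 0.38 ± 0.07, adjusted p = 0.0166 in limma). Sema3b (ENSMUSG00000057969, chromosome 9, 107597674 to 107609229, minus strand) stood at 11.4, 7.46, 7.58 and 8.59 TPM in trex and 5.59, 4.91, 5.02 and 4.86 TPM in wt. It rose 1.72-fold (log2 difference 0.66 ± 0.14, adjusted p = 0.0252), with trex replicate 1 above the other mutants. The call of Sema3d ended without trex replicate 3 or wt replicate 1, 2 or 3 (reaching 0.0634), and that of Sema3b without trex replicate 4 or any wt replicate (up to 0.0906).

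Sema3f (chromosome 9), the Nrp2 ligand that lies 72.3 kb from Sema3b, was the most abundant member of the class. It stood at 57.0, 47.8, 46.9 and 43.6 TPM in trex and 40.3, 35.8, 42.1 and 34.1 TPM in wt. Groups did not overlap, but the log2 difference of 0.35 ± 0.10 was not called (adjusted p = 0.0587 in limma). Sema3a (chromosome 5), the Nrp1 ligand that repels many axons and crest cells, stood at 25.3, 25.1, 25.5 and 21.5 TPM in trex and 12.7, 17.0, 20.2 and 20.4 TPM in wt. Here the wt libraries were spread widely, and trex replicate 4 lay close to the highest of them (log2 difference 0.47 ± 0.14, adjusted p = 0.0757). Sema3c, a chemoattractant of cardiac neural crest, stood at 28.1, 23.0, 25.1 and 23.2 TPM in trex and 21.5, 25.3, 25.4 and 23.5 TPM in wt. Its groups overlapped throughout, and its difference was 0.05 ± 0.08. The Plxnd1 ligand Sema3e was low, with 1.497 to 2.97 TPM in mutants and 0.817 to 1.51 TPM in wt (adjusted p = 0.101; 0.0398 without trex replicate 2). Sema3g, a ligand of vessels, stood at 23.3 TPM in trex replicate 1 and between 9.21 and 12.4 TPM in the other 7 libraries. Sema3a, Sema3c, Sema3d and Sema3e lie within the same stretch of chromosome 5, with Sema3a 536 kb from Sema3d and 423 kb from Sema3e.

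The summed level of class 3 semaphorins was 129 to 170 TPM in trex and 108 to 119 TPM in wt, so the groups did not overlap. Class 4 semaphorins summed to 118 to 127 TPM and 110 to 123 TPM, and plexins of the A type to 165 to 194 TPM and 168 to 180 TPM, and both overlapped. Neuropilins summed to 137 to 197 TPM in trex and 85.9 to 101 TPM in wt. These sums describe the levels and were not tested.

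**Figure D3:**
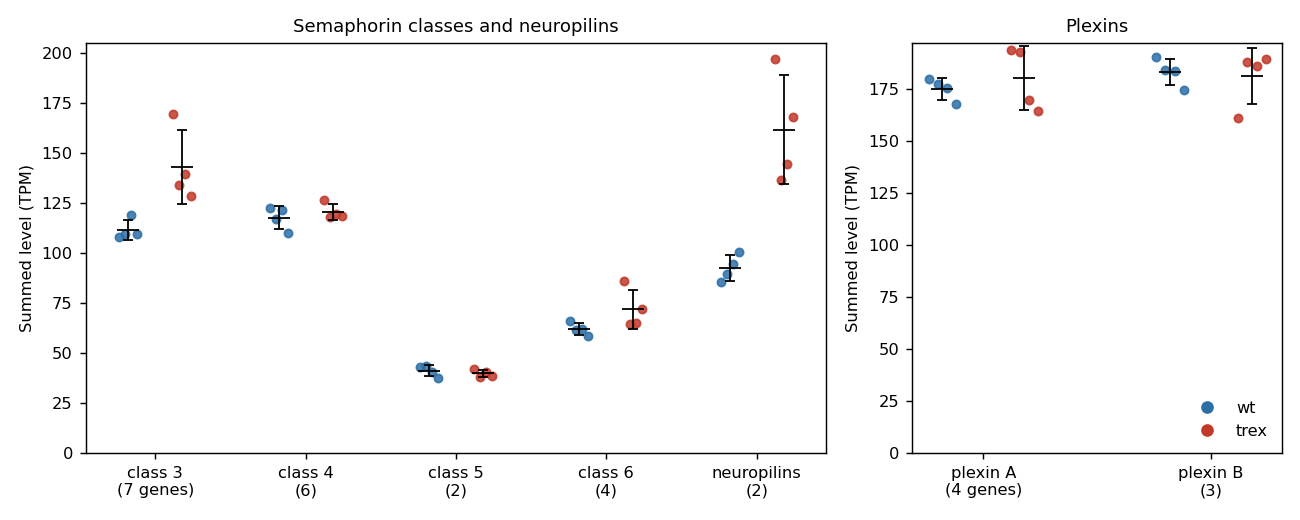
Summed level in TPM of semaphorin classes, neuropilins and plexins by library, with each library as a point, and the group mean and SD as bars. Neuropilins (137 to 197 TPM in trex, 85.9 to 101 TPM in wt) and class 3 semaphorins are the sums whose groups lie apart.

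The class 5 semaphorins, transmembrane proteins with thrombospondin repeats that repel or attract axons, were both called and in opposite directions. Sema5a (ENSMUSG00000022231, chromosome 15, 32244810 to 32696341, plus strand) stood at 22.3, 22.0, 21.7 and 19.6 TPM in trex and 14.9, 15.5, 16.1 and 16.5 TPM in wt, a 1.36-fold rise (log2 difference 0.42 ± 0.07, adjusted p = 0.0123 in limma). Sema5b (ENSMUSG00000052133, chromosome 16, 35541145 to 35664732, plus strand) stood at 20.1, 16.3, 19.0 and 19.3 TPM in trex and 28.5, 28.2, 24.7 and 21.3 TPM in wt, and was 1.37-fold lower in trex (log2 difference -0.43 ± 0.11, adjusted p = 0.0418). Neither gene had overlapping groups. Their sum was 40.1 ± 1.82 TPM in trex and 41.4 ± 2.75 TPM in wt, while Sema5a made up 50.4% to 57.3% of it in trex and 34.4% to 43.7% in wt. Among wt libraries, replicates 1 and 2 had the highest Sema5b and also the highest neuronal marker sums. Among trex libraries the orders differed, as replicate 1 had the highest Sema5b and the lowest neuronal marker sum (232 TPM). The part of neurons in the Sema5b difference was not tested. Sema5a was not called without wt replicate 2 (adjusted p = 0.0561), and Sema5b not without trex replicate 3 or 4 or wt replicate 1, 2 or 3 (up to 0.131). The non-coding gene Snhg18, which lies upstream of Sema5a on the other strand and was chosen after its values were seen, stood at 59.0, 27.5, 31.2 and 32.1 TPM in trex and 23.5, 27.1, 25.8 and 24.1 TPM in wt (adjusted p = 0.155).

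Class 4, 6 and 7 semaphorins, which are bound to the membrane, had no called member, where 8.71% of all tested genes were called. In so few genes, no call is close to that share and does not set these classes apart. In class 4, limma and voom each called 0 of 6, with 1 at an unadjusted p below 0.05, and in class 6 each called 0 of 4, with 3 at an unadjusted p below 0.05. Sema4g (chromosome 19) stood at 24.7, 12.3, 15.9 and 17.8 TPM in trex and 11.98, 11.5, 11.8 and 9.54 TPM in wt, with trex replicate 2 next to wt (adjusted p = 0.0828; 0.0193 without trex replicate 2). Sema4c, the most abundant semaphorin and a ligand of Plxnb2, stood at 78.1, 85.7, 81.1 and 79.7 TPM in trex and 88.5, 84.7, 91.6 and 81.1 TPM in wt. Its groups overlapped (log2 difference -0.09 ± 0.05), and it lies 20.4 Mb from Rdh10. Sema6d (chromosome 2), a Plxna1 ligand of the embryonic heart, stood at 25.1, 18.2, 19.5 and 21.4 TPM in trex and 17.2, 15.9, 15.7 and 17.3 TPM in wt (adjusted p = 0.0783; 0.0304 without trex replicate 2). Sema6a, a ligand of Plxna2 and Plxna4 that helps to keep motor neuron cell bodies inside the neural tube, stood at 32.6, 29.1, 25.6 and 26.4 TPM in trex and 24.2, 23.5, 24.5 and 23.3 TPM in wt (adjusted p = 0.0941). Neither Sema6d nor Sema6a had overlapping groups, and both were highest in trex replicate 1. Sema6b reached 15.0 TPM there and overlapped with wt (5.65 to 15.0 TPM against 5.07 to 7.56 TPM; adjusted p = 0.0383 without trex replicate 2). Sema6c had a negative difference (-0.30 ± 0.10, adjusted p = 0.0886). The other class 4 members ranged from 0.93 to 13.2 TPM over the 8 libraries, and the adjusted p of Sema4a, Sema4b, Sema4d and Sema4f was 0.483, 0.809, 0.205 and 0.648.

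**Figure D4:**
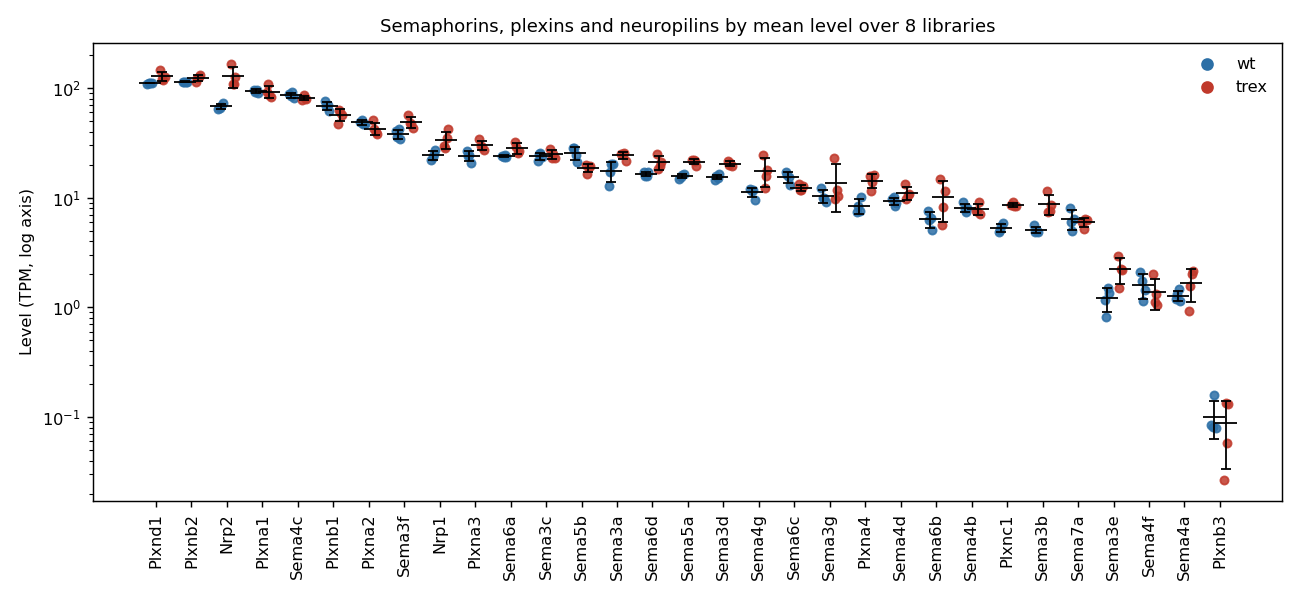
Level in TPM (log axis) of all 31 members in order of their mean over the 8 libraries, with each library as a point, and the group mean and SD as bars. Plxnd1 and Plxnb2 lead, Sema4c is the highest semaphorin, and Plxnb3 is far below the rest.

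By mean level over the 8 libraries, receptors led the family. Plxnd1, Plxnb2, Nrp2, Plxna1 and Sema4c were the highest, in that order. Among wt libraries, Plxnb2 (114 ± 0.958 TPM) and Plxnd1 (111 ± 1.15 TPM) stood well above Plxna1 (94.1 ± 3.23 TPM), and Nrp2 (68.2 ± 4.02 TPM) and Plxnb1 (69.1 ± 5.52 TPM) differed by less than their SDs. In trex, Nrp2 (128 ± 27.9 TPM), Plxnd1 (128 ± 13.3 TPM) and Plxnb2 (124 ± 7.14 TPM) were at like levels. The coefficient of variation among wt libraries ran from 0.839% for Plxnb2 to 26.4% for Sema4f over the tested members. Among trex libraries it reached 46.2% for Sema3g and 40.02% for Sema6b, both highest in trex replicate 1.

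Co-receptors and other ligands of these receptors were read from a list of 15 genes, of which 14 were tested. In limma, 1 rose, 1 fell and 12 were not called, with a median log2 difference of 0.34 (0.04 over all genes). That is 14.3% called, against 8.71% of all tested genes. With a single library left out, 1 to 7 of the 14 were called higher and 1 lower. Chl1, an adhesion molecule that acts in the Sema3a receptor complex, stood at 3.23, 5.70, 4.66 and 4.35 TPM in trex and 1.27, 0.832, 1.67 and 1.43 TPM in wt. It rose 3.45-fold (log2 difference 1.25 ± 0.18, adjusted p = 0.0093), and its relative L1cam, with 4.63 ± 0.404 TPM against 7.20 ± 2.00 TPM, was not called (adjusted p = 0.101). Ptprz1, a receptor phosphatase of neural progenitors, fell from 6.79 ± 0.471 to 3.53 ± 0.4997 TPM (adjusted p = 0.00942). Chl1 and Ptprz1 were called without each library in turn (up to 0.0411 and 0.0475). They were not called with sex as a covariate (0.0947 and 0.0908) or in the libraries low in Y-linked transcripts alone (0.163 and 0.195). Both of these settings set trex against wt replicates 1 and 4, and gave the same log2 differences (1.20 and -0.80).

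The neuropilin ligand Vegfa stood at 249, 72.6, 107 and 138 TPM in trex and 68.4, 57.9, 60.0 and 56.6 TPM in wt. Its groups did not overlap, and the mutants were spread over a wide range (adjusted p = 0.0681; 0.0139 without trex replicate 2 and 0.0470 without trex replicate 1). Its receptor Kdr, which pairs with neuropilins in endothelium, stood at 70.9 ± 16.5 TPM in trex against 49.1 ± 2.45 TPM (adjusted p = 0.0573; called without trex replicate 1 or 2, down to 0.0208). Nrcam, Erbb2 and Met, co-receptors of Nrp2, Plxnb1 and plexins of the B type, were not called (adjusted p = 0.187, 0.0727 and 0.258); Erbb2 was called without trex replicate 2 (0.0189). Low oxygen and glycolysis genes, many of them induced like Vegfa when oxygen is short, rose in 13 of 18 cases, where 4.94% of all tested genes rose. Leaving out a single library gave 0 to 18 of them higher. These 18 genes summed to 12812, 5499, 7773 and 9836 TPM in trex and 3846 to 4111 TPM in wt. Trex replicate 1 was thus highest in this sum, in Vegfa and in Nrp2, and trex replicate 2 lowest of the mutants in all of them. Nrp2 barely differed between trex replicates 2 and 3 (108 and 109 TPM). Trex replicates 1 and 2 were also the ends of the mutants on the first principal component of all tested genes. The part of low oxygen genes in the Nrp2 difference was not tested.

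Of 35 intracellular effectors of plexins, 2 rose, 6 fell and 27 were not called in limma, with a median log2 difference of -0.04. That is 22.9% called, against 8.71% of all tested genes (4.94% higher and 3.77% lower). With a single library left out, 0 to 5 effectors rose and 0 to 6 fell. The collapsin response mediator proteins, cytosolic relays of Sema3a signalling that are abundant in young neurons, made up 4 of the 6 that fell. Dpysl3 stood at 58.4, 80.8, 97.4 and 97.3 TPM in trex and 158, 185, 151 and 159 TPM in wt, and was 1.96-fold lower in trex (adjusted p = 0.0121). Dpysl4 (20.7 ± 7.82 against 45.5 ± 7.60 TPM) was 2.20-fold lower and Crmp1 (33.7 ± 8.07 against 57.3 ± 6.82 TPM) 1.70-fold lower, with trex replicate 1 lowest in each. Dpysl5 also fell (69.6 ± 3.76 against 83.2 ± 6.28 TPM, adjusted p = 0.0488), while Dpysl2 was not called (51.8 ± 7.09 against 54.1 ± 2.79 TPM, adjusted p = 0.650). Cdk5r1, the neuronal activator of the kinase that phosphorylates these proteins, fell 1.81-fold, and the kinase gene Pak1 1.39-fold.

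Among effectors that rose, Farp1, a guanine nucleotide exchange factor linked to plexins of the A type, averaged 140 ± 16.8 TPM against 109 ± 2.86 TPM (adjusted p = 0.0308). Mical1, the oxidase that binds plexin tails and severs actin, averaged 36.6 ± 2.20 against 29.98 ± 1.20 TPM (adjusted p = 0.0298). These calls were lost when certain single libraries were left out, and calls over all genes also became fewer without those libraries. Without trex replicate 3 or 4 or any wt replicate, Farp1, Mical1, Dpysl4 and Dpysl5 were not called (adjusted p up to 0.09999, 0.106, 0.128 and 0.148). Cdk5r1 was not called without trex replicate 3 or 4 or wt replicate 1, 2 or 3 (up to 0.114), Crmp1 without trex replicate 4 or any wt replicate (up to 0.107), Pak1 without trex replicate 3 or 4 or wt replicate 1 or 2 (up to 0.0848), and Dpysl3 without wt replicate 2 (0.0511).

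**Figure D5:**
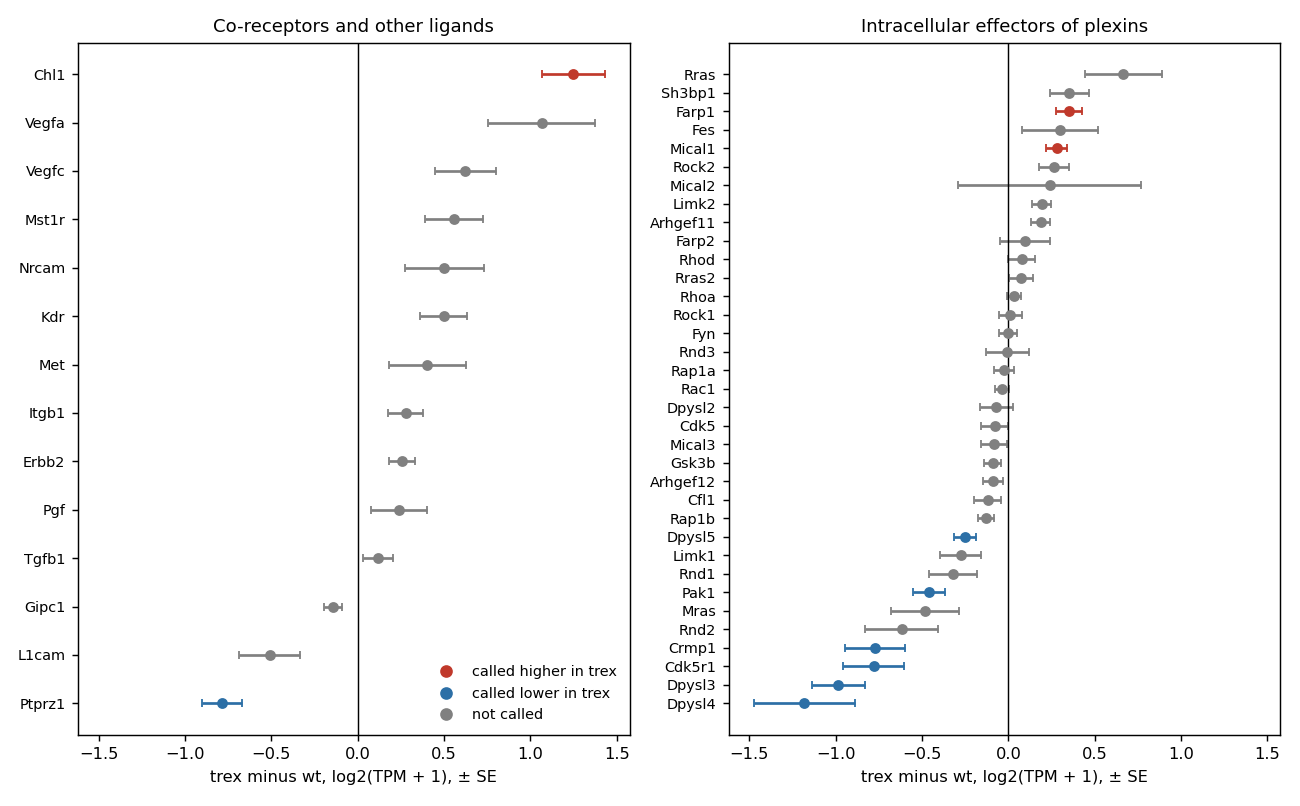
Difference between trex and wt (log2(TPM + 1) scale, mean ± SE from limma, n = 4 each) for co-receptors and other ligands (left) and plexin effectors (right), in order of size; red points were called higher, blue lower and grey not called. Chl1 stands at 1.25 and Ptprz1 at -0.79 on the left, and Dpysl4 and Dpysl3 stand at -1.18 and -0.99 on the right.

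Markers of neurons fell beside these effectors. Over all tested genes, 3.77% were called lower and 4.94% higher. Of 15 neuronal markers 12 fell and 0 rose in limma, and 13 had an unadjusted p below 0.05; between 3 and 13 fell when a single library was left out. Their summed level was 232 to 377 TPM in trex and 594 to 938 TPM in wt, and none was at 0 in all libraries. Of 12 markers of neural tube progenitors 5 fell and 0 rose (2 to 7 fell when a single library was left out), with sums of 692 to 874 TPM and 1025 to 1292 TPM. Neural crest markers summed to 736 to 886 TPM in trex and 665 to 685 TPM in wt, with 3 of 12 higher (Sox9, Snai2 and Twist1) and 2 lower (Ednrb and Ngfr). With sex as a covariate, limma called 0 of the co-receptors, effectors and neuronal, neural crest, endothelial and low oxygen genes, and 1 neural tube progenitor marker (lower). Over all tested genes that fit called 9 higher and 30 lower, and the share at an unadjusted p below 0.05 is not given here. Below that p were 6 of 14 co-receptors, 13 of 35 effectors, 13 of 15 neuronal and 5 of 12 neural tube progenitor genes. So were 6 of 12 neural crest, 3 of 14 endothelial and 17 of 18 low oxygen genes. The part of these cell types in the differences of Plxna4, Sema5b and the effectors was not tested.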

How the data were processed

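RNA-seq libraries from 4 trex and 4 wt samples were compared. The labels describe poly-A selected, stranded libraries. The deposited unit is TPM, made by the authors; each library sums to 1000000. The submitters' processing notes name CASAVA 1.8.2, STAR and mm10; no source used here gives the counter, its strand setting or the annotation release. Symbols, exonic lengths and coordinates came from GENCODE M21, on the assembly of mm10, which matched 55154 of 55421 identifiers. Multiplied by exonic length, 98.7% to 98.9% of low TPM values (up to 200 reads) were whole multiples of a step within 0.001 read, which gave recovered reads; these serve to state depth and for voom.

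Genes with a mean TPM of at least 1 (15717) were tested with limma 3.58.1 in R 4.3.3 (eBayes with trend, log2(TPM + 1), genotype as the only term, two-sided, Benjamini-Hochberg over all tested genes), with calls at an adjusted p under 0.05; adjusted p-values come from this fit except where another setting is stated. Log2 differences on this scale understate changes of weakly expressed genes, and folds are ratios of mean TPM. Values in all libraries are given for members that were called, did not overlap or averaged at least 20 TPM; from the partner lists, called genes (up to 5 per direction and list) and 6 co-receptors are named. Dpysl2, Dpysl5 and Snhg18 were added after their values were seen. Members and lists were chosen with earlier results of these data known. Overlapping genes were annotated across 18 members, none above a mean of 4.88 TPM. Alternatives were other pseudocounts, filters, scalings, variance models and weights, a replicate block, sex or liver level as covariates, the libraries low in Y-linked transcripts alone, voom, and leaving out each library.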

Additional observations from a re-analysis of the deposited data

Results flagged for a closer look

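Of 60 sets of 4 values (30 tested members in each group), 3 had a library far from the other 3 by Dixon's criterion, and chance flags about 1 in 20. Sema3g stood at 23.3 TPM in trex replicate 1, where the other trex libraries held 9.80 to 11.7 TPM. Sema3a stood at 21.5 TPM in trex replicate 4, below the 25.1 to 25.5 TPM of the others. Plxnc1 stood at 9.16 TPM in trex replicate 2, above 8.38 to 8.51 TPM in the others.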

How the results depend on the processing

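Over 23 alternatives the tested members gave 687 values; 612 kept their direction and side of the threshold, 40 lost a call, 25 gained one and 10 changed sign, all 10 in uncalled members. The 6 higher members became 0 with sex as a covariate or in the libraries low in Y-linked transcripts alone (12 members there at an unadjusted p below 0.05), 16 with array weights and 2 to 11 when a library was left out. The 1 lower member became 0 under both of those Y-linked settings, without a filter, with eBayes without trend, with the replicate block and with liver level as a covariate; it became 2 after quantile normalization, 4 with array weights and 0 to 2 when a library was left out. Sema3b was not called without a filter (adjusted p = 0.0545). Sign changes were those of Plxna1 (0.011 with liver level as a covariate; -0.10 to 0.031 with a library left out, positive without trex replicate 3, at 0.0089, or 4), Sema3c (-0.0027 after quantile normalization; -0.0077 to 0.086 with a library left out, negative without trex replicate 1), Sema4b (0.12 with array weights; -0.11 to 0.010 with a library left out, positive without wt replicate 1 and, at 0.00061, without trex replicate 4) and Sema7a (0.058 with array weights; -0.16 to 0.044 with a library left out, positive without wt replicate 1). The cause of these changes was not tested. Over all genes 777 were higher and 592 lower. The counts were 633 and 739 after quantile normalization, 643 and 822 by voom, 344 and 350 without a filter, 3362 and 2162 with array weights, 9 and 30 with the sex covariate, 2 and 6 in the libraries low in Y-linked transcripts, and from 84 to 1702 and from 117 to 1209 with a library left out. With the replicate block 404 genes were higher and 283 lower, and 5 members were higher, among them Nrp1 (adjusted p = 0.0410) but not Sema3d (0.0632) or Sema5a (0.0516). The titles number the samples 1 to 4 (trex) and 5 to 8 (wt), so the block pairs libraries by order alone. Deviations of libraries so paired correlated at -0.0225 to 0.252, and not every library correlated best with its pair. Such correlations cannot decide whether the samples were paired. Depth limits Plxnb3, at 1 to 6 reads.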
